A study of Mus musculus with 6 samples.

Results

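The aldehyde dehydrogenases described here are 8 mouse genes, Aldh1a1, Aldh1a2, Aldh1a3, Aldh1a7, Aldh2, Aldh3a2, Aldh7a1 and Aldh9a1, read by 17 of the 45032 probe sets that could be used on an Affymetrix mouse array. All probe sets annotated to these genes were taken. The group was assembled around Aldh1a1, which had been picked for its low value in Rb-null cells on these same arrays, so the members were chosen by its Rb-null against control difference and the values of this comparison are given as a description, with no test of the members. RNA came from mouse bone marrow, from cells sorted for Ter-119, a surface antigen of red cell precursors, together with the transferrin receptor CD71. Controls (3 arrays) carried EpoR-GFPcre/+ with Rb fl/+, and Rb-null mice (3 arrays) carried EpoR-GFPcre/+ with Rb fl/fl, so both groups had a Cre at the erythropoietin receptor locus and at least 1 floxed Rb allele. The sources used here give neither the age and strain of the mice nor the extent of Rb deletion in the sorted cells. Nothing in the labels says that arrays of 1 group came from separate animals, so the spread between arrays may be technical.

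Aldehyde dehydrogenases oxidise reactive aldehydes to carboxylic acids with NAD or NADP as the acceptor. Aldh1a1, Aldh1a2 and Aldh1a3 turn retinaldehyde into retinoic acid, the ligand of the retinoic acid receptors, and Aldh1a7 is a close relative of Aldh1a1 found in rodents. Aldh2 is the mitochondrial enzyme that clears acetaldehyde, and blood stem cells depend on it together with the Fanconi DNA repair pathway. Aldh3a2 handles fatty aldehydes, Aldh7a1 (antiquitin) acts in lysine breakdown, and Aldh9a1 makes a precursor of carnitine. In bone marrow, high aldehyde dehydrogenase activity is a known property of stem and progenitor cells.

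Aldh1a1 and Aldh1a7 are next to each other among the protein-coding genes of chromosome 19 in RefSeq's annotation of GRCm38.p6. The stretches before their starts are shown because they are close copies near the start, whereas the Aldh1a1 and Aldh1a7 probe sets differ in the values given below. Each line gives the 250 bases before a RefSeq transcript start (GRCm38.p6), written 5′ to 3′ on the gene's strand. Capitals mark matches to the GATA words in Aldh1a1 and the bases of Aldh1a7 at the same distance from the start as the match nearest the start.
Aldh1a1, chr19:20601718-20601967, plus strand: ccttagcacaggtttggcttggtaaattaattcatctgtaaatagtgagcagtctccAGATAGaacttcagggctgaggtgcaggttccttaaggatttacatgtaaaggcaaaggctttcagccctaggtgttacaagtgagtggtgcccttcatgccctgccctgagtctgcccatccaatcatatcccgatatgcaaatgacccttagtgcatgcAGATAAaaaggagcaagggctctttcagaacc
Aldh1a7, chr19:20727557-20727806, minus strand: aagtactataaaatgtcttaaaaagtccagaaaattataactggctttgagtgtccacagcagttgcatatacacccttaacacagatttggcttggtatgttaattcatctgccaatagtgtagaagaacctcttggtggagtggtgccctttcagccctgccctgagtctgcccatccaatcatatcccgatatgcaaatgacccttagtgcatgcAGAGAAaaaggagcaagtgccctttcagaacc
Over the last 100 bases before the start, 94 were identical without a gap, while an alignment of all 250 with gaps gave 160 identical bases, 15 mismatches and gaps for the rest. In those 100 bases, counted back from the start with the Aldh1a1 base first, the substitutions were C97T, A96C, T95A, T29G, G15T and T12C. The GATA words searched on both strands were AGATAA and TGATAA, and also AGATAG and TGATAG. Aldh1a1 held 2 matches in this window, beginning 193 and 32 bases before the start, and Aldh1a7 held 0. The T29G substitution lies inside the match nearest the start, which reads AGATAA in Aldh1a1 and AGAGAA in Aldh1a7 and lies where a TATA box is found in promoters that have one. The word CCAAT lay 72 bases before the start in both genes and overlapped no GATA word there. Of 32851 RefSeq promoter windows of this length, 26.5% held a GATA word, 33.8% held CCAAT and 12.4% held TATAAA. The E2F words TTTCCCGC or TTTCGCGC, and TTTGCCGC or TTTGGCGC, also searched on both strands, were in 1.86% of all windows and in neither of these. A second RefSeq start of Aldh1a1, farther upstream, had no match to the GATA or E2F words in its window. Of the 8 genes, 5 had a promoter in the table, and among the others Aldh9a1 held 1 GATA word while Aldh1a2 and Aldh3a2 held 0. A match is a description of letters and not a bound site.

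Median intensities of the 6 arrays ranged from 23.3 to 31.2, and having 6 arrays limits the precision of all values. Rb1, the floxed gene, read 1379 to 2760 in controls and 2897 to 4045 in Rb-null arrays on its bright probe set. The sources used here do not place that probe set relative to the floxed part, so its signal cannot check the labels. Over the 27019 probe sets whose mean log2(intensity + 16) lay above the 40th percentile, limma called 0 at an adjusted p under 0.05 (0% of those tested), while 1119 (4.14%) stood at an unadjusted p under 0.05, of which 757 were higher and 362 lower in Rb-null cells. With the replicate number as a block the counts were 0 and 4458 (16.5%). Adding a variance trend and robust moderation to that block gave 938 called probe sets (3.47%).

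Of the 8 genes Aldh1a1 showed the widest difference between the groups, with 2.93-fold lower signal in Rb-null cells. On the Aldh1a1 probe set, control arrays 1, 2 and 3 read 1719.9, 1905 and 2258. Rb-null arrays 1, 2 and 3 read 748, 794 and 496. All Rb-null arrays lay below all control arrays, and the third pair was the farthest apart. Control arrays averaged 1961 ± 273 (SD, n = 3) and Rb-null arrays 679 ± 160 (SD, n = 3), which is a log2 fold change of -1.55 (SE 0.26) on the normalised log2(intensity + 16) scale. Within pairs of equally numbered arrays the log2 differences were -1.33, -1.34 and -1.99. It ranked 15 among 27019 probe sets ordered from the lowest log2 fold change, and 0.0666% of them fell under -1.5. These are the values for which the gene was picked.

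For Aldh1a7, the neighbour of Aldh1a1, the 2 groups lay closer together. Control arrays 1, 2 and 3 read 114.7, 150.5 and 78.7 on its probe set, and the Rb-null arrays in the same order read 66.3, 126.2 and 61.8. The groups overlapped, although the Rb-null array was the lower one in each pair. The log2 fold change was -0.38 (SE 0.30), with pair differences of -0.63, -0.22 and -0.29. It was -0.24 without Rb-null replicate 1 and -0.59 without Rb-null replicate 2. Probe sequences were not used here, so how far the Aldh1a1 and Aldh1a7 probe sets read each other's transcripts was not tested.

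**Figure D1:**
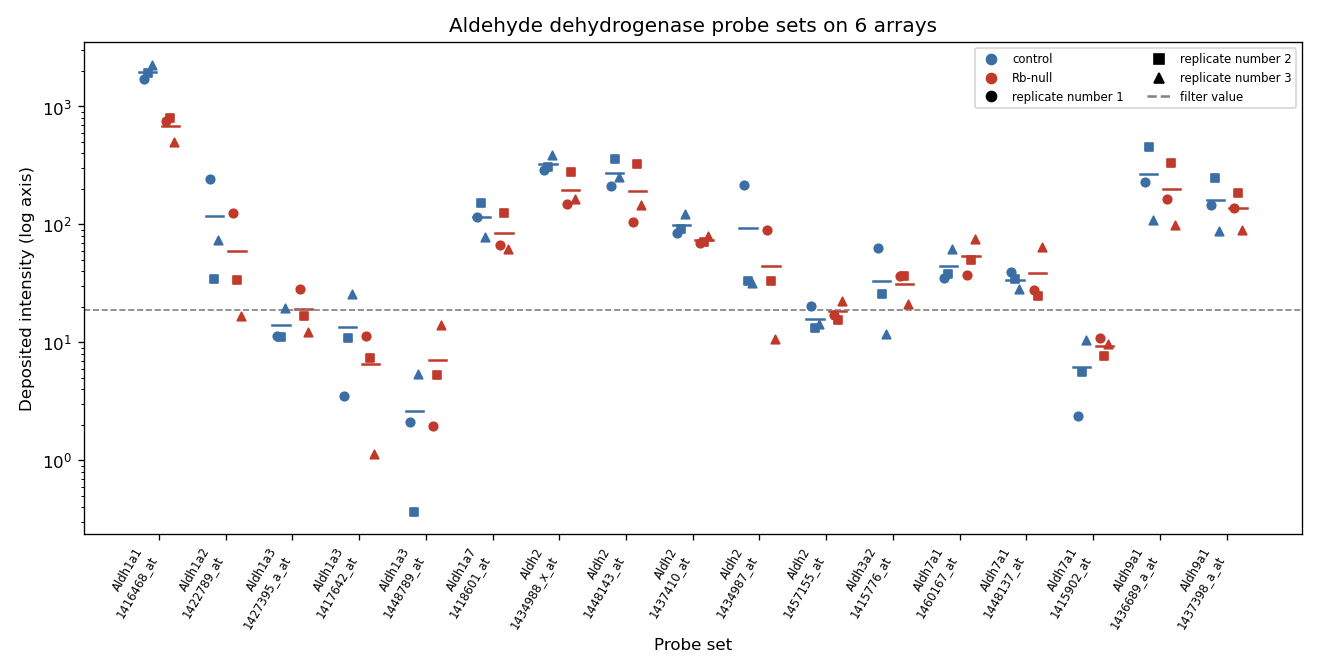
Deposited intensity on a log axis for the 17 aldehyde dehydrogenase probe sets on 6 arrays, blue for control and red for Rb-null, with a marker shape for each replicate number, short lines for group means and a dashed line at an intensity of 18.9, the filter value. The Aldh1a1 probe set reads 496 to 794 in Rb-null cells and 1719.9 to 2258 in controls, while the 3 Aldh1a3 probe sets lie mostly under the dashed line.

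For the other 2 retinaldehyde dehydrogenases the groups overlapped. For Aldh1a2, control arrays 1, 2 and 3 read 243, 34.6 and 73.9, and the Rb-null arrays in that order 126, 34.1 and 16.9. Its signal was high on both arrays numbered 1 and the groups overlapped. The log2 fold change was -0.81 (SE 0.67), from pair differences of -0.89, -0.02 and -1.53, and it was -0.20 without control replicate 1 and -1.39 without Rb-null replicate 1. Aldh1a3 had 3 probe sets, all under the filter, with intensities from 0.37 to 28.4 over the 6 arrays. Their log2 fold changes, 0.20 (SE 0.27) for the brightest, then -0.38 (SE 0.36), then 0.28 (SE 0.30), did not share a sign, so no level or direction can be read for this gene.

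Aldh2 was read by 5 probe sets, of which 4 passed the filter, and those 4 were lower in Rb-null cells in each pair. On the brightest, 1434988_x_at, control arrays 1, 2 and 3 read 290.6, 304.5 and 386, and the Rb-null arrays in that order 147.6, 276.7 and 164.7. Its groups did not overlap, and its log2 fold change was -0.75 (SE 0.32). The probe set 1448143_at read 210.3, 360.2 and 254.4 in controls, and 104.1, 326.7 and 145.6 on the Rb-null arrays, with groups that overlapped and a log2 fold change of -0.61 (SE 0.39). Without Rb-null replicate 1 this was -0.26, and without Rb-null replicate 2 it was -0.95. In both of these probe sets, pair 2 differed little (-0.14 and -0.14), whereas pairs 1 and 3 differed by -0.94 and -1.16 for the former and by -0.92 and -0.76 for the latter.

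The probe set 1437410_at read 84.8, 92.1 and 121 in controls against 69.4, 70.7 and 79.7 on the Rb-null arrays, a log2 fold change of -0.35 (SE 0.30), or -0.12 without control replicate 3. Its groups were apart as deposited and overlapped after normalization. The probe set 1434987_at stood out from the others of the gene, with 214.3 and 90.6 on control and Rb-null arrays 1 against 10.7 to 33.1 on the other 4 arrays. Its log2 fold change of -0.68 (SE 0.66) became 0.04 without control replicate 1. Over the 6 arrays its Pearson correlation with the brightest Aldh2 probe set was -0.01, against 0.81 for 1448143_at with that probe set. The fifth, 1457155_at, was under the filter at 13.2 to 22.5.

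Aldh9a1 followed the replicate number more than the group. On its probe set 1436689_a_at, control arrays 1, 2 and 3 read 231.2, 456.2 and 108.2, and the Rb-null arrays in that order 165.5, 331.9 and 98.7. Both arrays numbered 2 were high and both numbered 3 were low, and the groups overlapped widely. The log2 fold change was -0.34 (SE 0.47), from pair differences of -0.47, -0.44 and -0.12. It was 0.05 without control replicate 2 and -0.73 without control replicate 3. Leaving out 1 array makes the replicate numbers unequal between the groups, so spread between numbers enters such values. The probe set 1437398_a_at ran alongside 1436689_a_at (r = 0.97 over 6 arrays), with a log2 fold change of -0.14 (SE 0.33).

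Aldh3a2 and Aldh7a1 were dim, and their small positive log2 fold changes changed sign under at least 1 alternative for 3 of their 4 probe sets. For Aldh3a2, control arrays 1, 2 and 3 read 62.7, 25.6 and 11.7, and the Rb-null arrays in that order 36.9, 36.6 and 21.0, with a log2 fold change of 0.07 (SE 0.36). The Rb-null array was lower in the first pair and higher in the others. The brightest Aldh7a1 probe set, 1460167_at, read 35.5, 37.7 and 61.4 in controls and 37.2, 49.7 and 74.6 in Rb-null cells. It was the single probe set of the 17 that was higher in each pair (7775 of all 45032 were, 17.3%), at a log2 fold change of 0.20 (SE 0.37), which was -0.09 without Rb-null replicate 3 and 0.03 without control replicate 1. A second Aldh7a1 probe set past the filter had 0.10 (SE 0.36), and the third, under it, had 0.19 (SE 0.26).

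**Figure D2:**
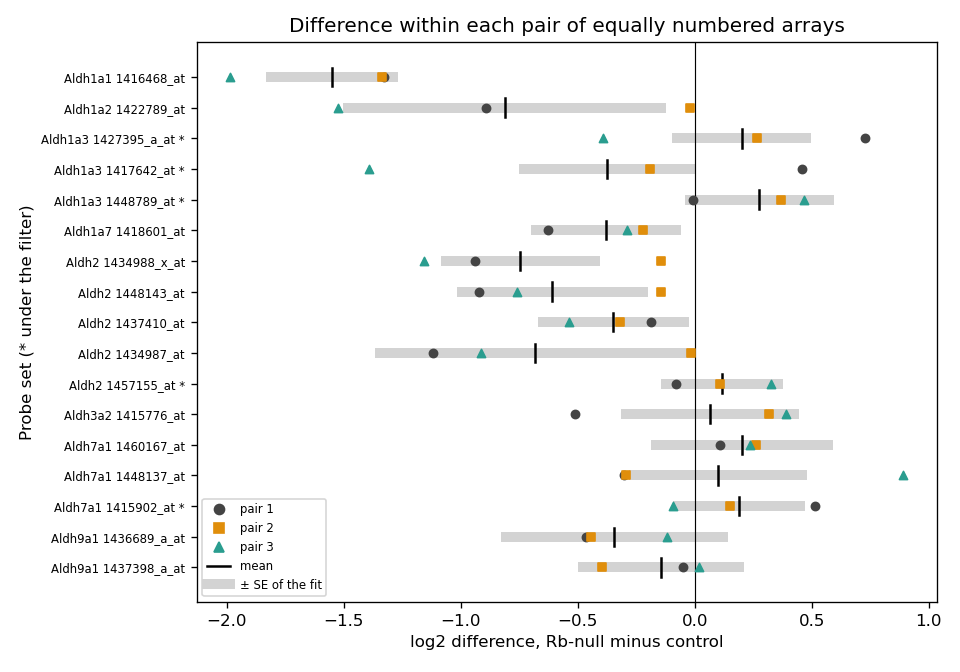
Log2 difference, Rb-null minus control, within each pair of equally numbered arrays (points), with the mean (black bar) and the standard error of the fit (grey band), for the 17 probe sets. The fit had no replicate block, so the grey band includes the spread between replicate numbers, which the pair differences leave out. Aldh1a1 lies at -1.33, -1.34 and -1.99, and its mean is apart from the other means. Single points overlap, with pair 3 of Aldh1a2 at -1.53 and pair 3 of 1417642_at of Aldh1a3, under the filter, at -1.39. Pair 2 of the 2 brightest Aldh2 probe sets lies at -0.14.

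Counted over all 17 probe sets, whether or not they passed the filter, 10 had a lower mean in Rb-null cells and 7 a higher one, against 51.3% lower among all 45032 probe sets. In each of the 3 pairs 8 were lower (18.4% of all probe sets were), and for 2 the groups did not overlap with Rb-null lower (3.68% of all probe sets), against 0 with Rb-null higher (4.83%). The median log2 fold change was -0.34, beside -0.01 for all probe sets. Probe sets of 1 gene read the same transcript and are not independent, and the group was built on this contrast, so nothing is read from these shares.

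**Figure D3:**
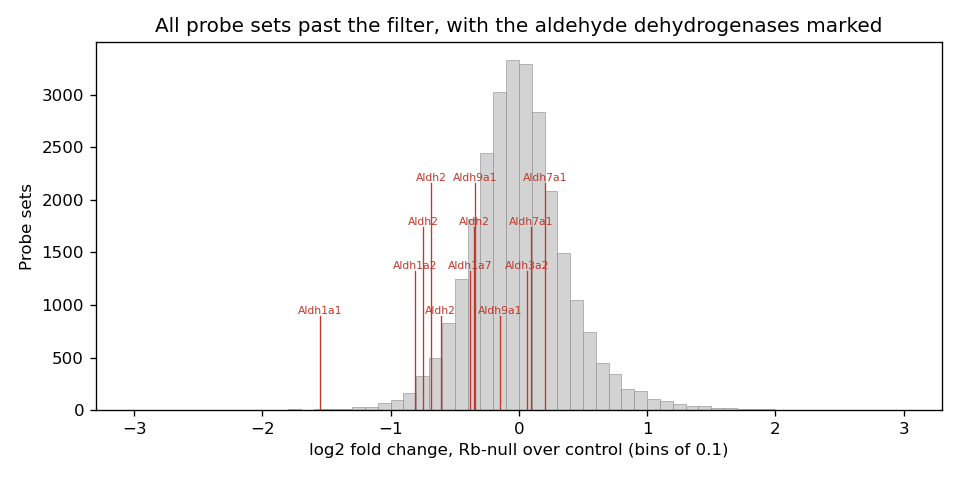
Number of probe sets in bins of the log2 fold change (x axis, Rb-null over control) for the 27019 past the filter, with red lines at the 12 aldehyde dehydrogenase probe sets among them, whose heights only separate the names. Aldh1a1 stands in the low tail at -1.55, and the other 11 lie between -0.81 and 0.20.

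The spread between replicate numbers differed among the genes. For each probe set the deviations from the group means were averaged over the 2 arrays of a number. The averages of Aldh1a1 ranged over 0.05 on the log2 scale, and 99.6% of the 27019 probe sets had a wider range. Its control and Rb-null arrays numbered 3 deviated in opposite directions and cancelled in this average. Aldh1a2 ranged over 1.94 and the Aldh2 probe set 1434987_at over 1.96, where 2.62% and 2.48% of probe sets were wider, and 1436689_a_at of Aldh9a1 over 1.40. The median of all probe sets was 0.66. The sources used here do not say what the numbers stand for.

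Markers of other cell types were read beside these genes. Of 14 granulocyte markers 14 had a negative log2 fold change (median -0.51) and 7 were lower in each pair, with summed intensities of 38800 to 58200 in controls and 28400 to 57700 in Rb-null cells. Among the 13232 genes tested, 54.6% had a negative log2 fold change and 3186 were lower in each pair. Of 10 macrophage markers 9 were negative (median -0.41, sums 1700 to 2870 and 1350 to 1740), and of 6 B cell markers past the filter 5 were (median -0.52, sums 719 to 1400 and 429 to 791). All sums given here cover every marker of a list that was read, including those under the filter. Of 8 erythroid markers past the filter, Tfrc, the CD71 gene, among them, 4 were negative and 4 positive (median 0.01, sums 35700 to 38500 and 36200 to 43800). Epor, the locus that carries the Cre, read 2221, 265.8 and 609 on control arrays 1, 2 and 3 on its brightest probe set. The Rb-null arrays in that order read 248, 2228 and 558, so its pair differences were -3.24, 2.96 and -0.14. The cause of this spread was not tested. Limma called 0 markers of these lists, and 1 macrophage and 1 B cell marker stood at an unadjusted p under 0.05. All granulocyte and macrophage markers that were read lay above the filter, S100a8 of granulocytes at 9111 to 12488 on the 6 arrays. Of the erythroid markers read, Hba-a1, an alpha globin gene, was under the filter on its probe set with a single symbol. Stem and progenitor markers past the filter had 3 negative and 3 positive of 6 (median 0.08), with Cd34 and Mecom under the filter.

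Set pair by pair, granulocyte markers had medians of -0.82, -0.01 and -0.64, macrophage markers -0.39, 0.06 and -1.01, and B cell markers -0.62, -0.20 and -0.80. Pair 2 was also the highest for erythroid markers (-0.08, 0.11 and -0.06) and stem and progenitor markers (-0.18, 0.15 and -0.19). The same held for megakaryocyte markers (-0.003, 0.11 and -0.34). It did not hold for mast cell, basophil and eosinophil markers (-0.01, -0.10 and -0.05) or stroma and endothelium markers (-0.10, 0.07 and 0.49). The Aldh1a1 differences were -1.33, -1.34 and -1.99 beside these. The Aldh2 probe sets past the filter and Aldh1a2 differed in pairs 1 and 3 and lay between -0.14 and -0.01 in pair 2, apart from 1437410_at at -0.32. What part the other cell types had in the values of any of these genes was not tested. In sorted bulk cells, fewer cells of a type and less RNA per cell cannot be told apart.

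**Figure D4:**
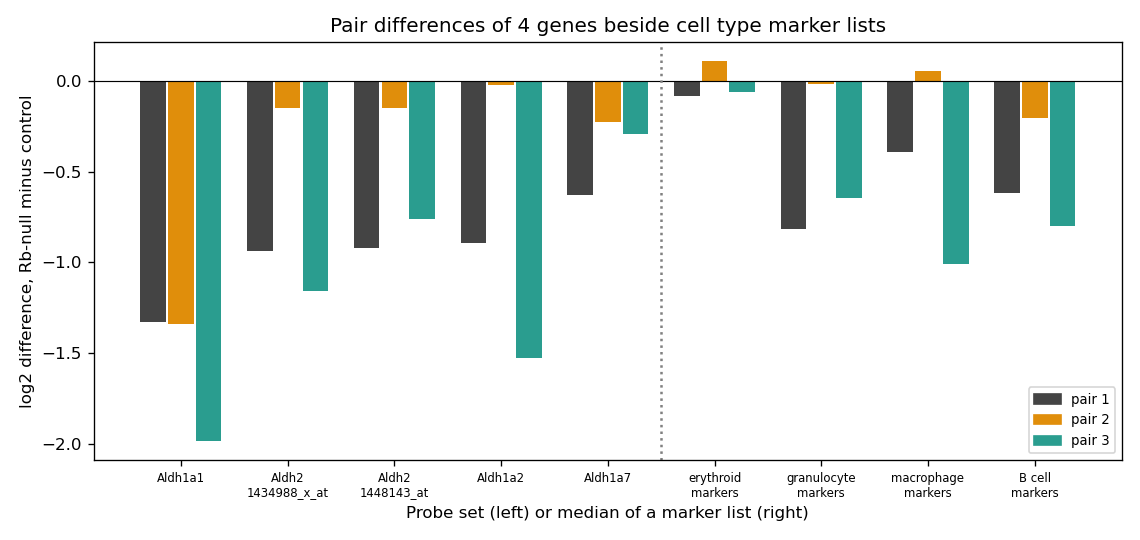
Log2 difference, Rb-null minus control, in each of 3 pairs for 5 probe sets of 4 genes (left) and as the median of 4 marker lists (right). In pair 2 Aldh1a1 lies at -1.34, both Aldh2 probe sets at -0.14 and Aldh1a2 at -0.02. Beside these stand 0.11 for erythroid, -0.01 for granulocyte, 0.06 for macrophage and -0.20 for B cell markers.

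Other enzymes of the family that passed the filter showed no shared direction. Of the 12 other aldehyde dehydrogenases on the array 7 passed the filter, 3 with a negative and 4 with a positive log2 fold change (median 0.04, against -0.04 over the 13232 genes tested), and limma called 0 in either direction. Aldh16a1, an atypical member of the family, had -0.51 (SE 0.28) on its brightest probe set and -1.02 (SE 0.41) on the other. Aldh18a1, which makes a precursor of proline, had 0.45 (SE 0.26) on its brightest probe set, but its other 4 ranged from -0.81 to 0.29, so these disagree. Aldh1l1, of folate metabolism, had 0.39 (SE 0.30), and Aldh4a1, of proline breakdown, -0.44 (SE 0.34). Aldh5a1, Aldh6a1, Aldh1b1, Aldh1l2 and Aldh3a1 were under the filter. All of these had a negative log2 fold change, from -0.30 (SE 0.27) for Aldh3a1 to -0.10 (SE 0.24) for Aldh1b1.

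Genes that make, carry or sense retinoic acid were also divided. Of 24 retinoid genes on the array 16 passed the filter, 8 in each direction (median 0.02), and limma called 0, with 1 at an unadjusted p under 0.05. That gene was Rdh11, a retinal reductase, with means of 91.7 ± 33.0 (SD, n = 3) for control and 158 ± 30.9 (SD, n = 3) for Rb-null arrays, a log2 fold change of 0.73 (SE 0.27, limma adjusted p = 1.00). Its second probe set had 0.38 (SE 0.61). Cyp26a1 and Cyp26b1, which break down retinoic acid and are induced by it, had 0.36 (SE 0.32) and 0.28 (SE 0.29), and the retinol dehydrogenase Rdh12 -0.28 (SE 0.32). The receptors Rxra, Rxrb and Rarg had -0.02, 0.19 and -0.02, and Rara was under the filter.

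Among other enzymes that deal with aldehydes and alcohols, 10 of 16 on the array passed the filter, 7 negative and 3 positive (median -0.18), and limma called 0. Glo1, the glyoxalase that removes methylglyoxal, gave 1025.6, 2146 and 1946 in controls 1, 2 and 3 against 553, 869.8 and 675 on the Rb-null arrays in that order. The groups did not overlap, and its log2 fold change was -1.27 (SE 0.34, limma adjusted p = 0.670). Its 3 other probe sets had -0.74, -0.98 and -1.42. Gpx4, the peroxidase that removes lipid peroxides, the source of many fatty aldehydes, had 0.87 (SE 0.26, limma adjusted p = 0.797), with 0.78 on its second probe set. The aldehyde reductase Akr1a1 had -0.91 (SE 0.42), its other 3 probe sets lay between -0.75 and -0.60, and Adh7, an alcohol dehydrogenase active on retinol, had 0.43 (SE 0.25).

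Genes that supply or use the substrates of Aldh3a2, Aldh7a1 and Aldh9a1 gave no call. Of 15 on the array 10 passed the filter, 6 negative and 4 positive (median -0.11), with 0 called by limma and 0 at an unadjusted p under 0.05. Sphk2, a sphingosine kinase, had 0.59 (SE 0.31) on its brightest probe set and -0.25 (SE 0.40) on the other. Smox, the spermine oxidase, had -0.50 (SE 0.44), Sgpl1, the lyase that releases a fatty aldehyde from sphingosine phosphate, -0.57 (SE 0.51), and the choline dehydrogenase Chdh -0.18 (SE 0.28).

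The genes whose profile over the 6 arrays was most like that of Aldh1a1 were Lpcat3, Gm9895, Micos13, Dnajb2 and Cd59a, chosen as the 5 highest Pearson correlations among 13225 genes. Their correlations were 0.994, 0.992, 0.991, 0.991 and 0.990, and 167 genes (1.26%) exceeded 0.9. Within such a profile the difference between the groups counts most. With the group means removed, the correlations were 0.98, 0.82, 0.75, 0.82 and 0.96. Lpcat3, an acyltransferase of membrane phospholipids, averaged 952 ± 93.7 (SD, n = 3) on control and 620 ± 95.0 (SD, n = 3) on Rb-null arrays. Cd59a, a surface inhibitor of complement on red cells, had a log2 fold change of -0.99 (SE 0.26), and -1.05 (SE 0.26) on its second probe set. Micos13, of the mitochondrial cristae, had -0.72 (SE 0.24), with 0.61 on a second probe set under the filter, Dnajb2, a chaperone partner, -0.81 (SE 0.25), and the uncharacterised Gm9895 -0.94 (SE 0.25). Of the other 16 probe sets of the 8 genes, 1434988_x_at of Aldh2 had the highest correlation with Aldh1a1 over the 6 arrays, at 0.82. With the group means removed it had 0.49, below 0.89 and 0.88 for 2 Aldh1a3 probe sets and 0.54 for the dimmest of Aldh7a1, all under the filter. The 6 arrays share the 2 groups and the replicate numbers, so these correlations carry no test.

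**Figure D5:**
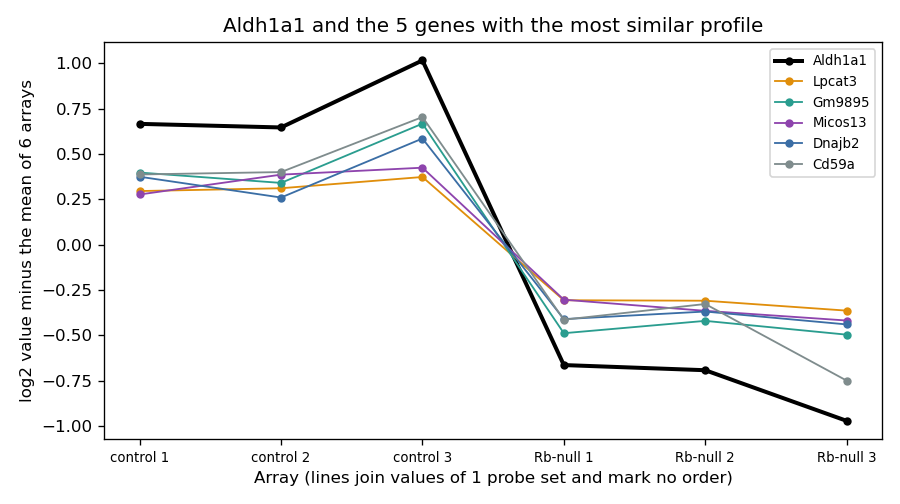
Normalised log2 value minus its mean over 6 arrays for Aldh1a1 (black) and the 5 genes most like it, on control arrays (left) and Rb-null arrays (right). All 6 genes are higher on each control array than on each Rb-null array, and Aldh1a1 has the widest difference.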

How the data were processed

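The authors deposited probe set intensities on a linear scale. The sources used here do not state how these came from the scans. Group and number of each array came from the sample titles, and probe sets were named through GEO's platform annotation with symbols updated to RefSeq by gene ID. Of 45101 rows, 64 controls, 4 empty probe sets and 1 above a 16-bit scanner's range were left out, and 34941 of the remaining 45032 carried 1 gene symbol. Array medians of log2(intensity + 16) differed by 0.264, more than the limit of 0.2, so values were quantile normalised. The 27019 probe sets whose mean exceeded the 40th percentile were fitted with limma 3.58.1 in R 4.3.3 and adjusted by Benjamini-Hochberg over all of them at a threshold of 0.05, 2-sided. Values of probe sets under the filter come from the fit without it. Fits with and without the replicate number as a block were run on simulated data with planted differences. Recovery of those differences was required only of the fit with the block.

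Same-numbered arrays deviated together (r = 0.639, 0.621 and 0.667 over probe sets, at most 0.0719 between numbers), so pair differences are given. The SEs, and the adjusted p-values of single genes, come from fits without the replicate number as a block and include the spread between numbers. With the block, the SE was smaller for every probe set of the 8 genes past the filter. It was 0.20 for Aldh1a1 and 0.16 for 1436689_a_at of Aldh9a1. The members and lists were chosen with earlier results of these data known. Lists held other aldehyde dehydrogenases, retinoid genes, other aldehyde and alcohol enzymes, substrate pathway genes and markers of 8 cell types, with the brightest probe set standing for a gene. Besides the members, up to 4 genes of each pathway list with the smallest p and the 5 genes most correlated with Aldh1a1 were named. Megakaryocyte markers had a median of -0.15, mast cell, basophil and eosinophil markers -0.16, and stroma and endothelium markers 0.16. Alternatives changed the offset, scaling, filter, block, moderation, weights and arrays used. Sequences are from RefSeq's promoter table.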

Additional observations from a re-analysis of the deposited data

How the results depend on the processing

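Limma called 0 probe sets under all alternatives except the replicate block with trend and robust moderation, which called 938 (605 higher and 333 lower). Lowest adjusted p-values of the other alternatives ran from 0.0503 with array weights to 1.00 without Rb-null replicate 1 or 3. The replicate block alone changed no call. The Aldh1a1 log2 fold change ran from -1.63 without control replicate 2 to -1.30 without both arrays numbered 3. The sign changed under at least 1 of the alternatives for 8 of the 17 probe sets, 1 of Aldh1a3, 2 of Aldh2, 1 of Aldh3a2, 2 of Aldh7a1 and 2 of Aldh9a1. Fits with 1 array left out had replicate numbers unequal between the groups, so spread between numbers entered their values. Of these 8, 1434987_at of Aldh2 and 1436689_a_at of Aldh9a1 were lower in each pair, and 1460167_at of Aldh7a1 was higher in each pair. The median of the other aldehyde dehydrogenases had no settled sign. It was -0.25 with an offset of 1, -0.17 with the deposited scaling, -0.17 with median centring, -0.18 without the filter and 0.22 with the filter at the 60th percentile, and it ran from -0.31 to 0.17 with 1 array left out. A change of the filter changes which genes enter this median, and without the filter all 12 on the array enter. The cause of the other shifts was not tested. The medians of the retinoid, other aldehyde and alcohol enzyme and substrate pathway lists moved by less than the spread between pairs under every alternative run. The retinoid median, near 0 in the main fit, still changed sign. It ran from -0.07 without Rb-null replicate 3 to 0.14 without Rb-null replicate 2. Marker lists were not run under the alternatives. Probe sets near the filter value have little signal over background, which limits what can be said of Aldh1a3, Aldh3a2 and Aldh7a1.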
